A study of Saccharomyces cerevisiae with 2 samples.

Results

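The 31 genes described here encode the subunits of the 3 nuclear RNA polymerases of budding yeast. Membership is set by a list of systematic names and by no measured value, and all 31 were among the 6692 genes with counts. The list holds 7 subunits found only in RNA polymerase I (Pol I), 7 found only in Pol II, 10 found only in Pol III and 7 shared subunits, of which 5 sit in all 3 enzymes and 2 in Pol I and Pol III. The RNA came from 2 libraries of Saccharomyces cerevisiae, labelled as replicates 1 and 2 of strain yJL59a after methionine depletion. The study, which maps contacts of gene regions in the nucleus, calls such replicates biological, and they form 1 group with no untreated control here. Both libraries carry the same genotype, given as MATa with the marker alleles his3-11,15 and a mutant allele of LEU2, also trp1-1 and ura3-1, together with can1-100 and ade2-1. The MET3 promoter, which is active when methionine is lacking, drives mCherry in the construct CDC20::MET3pr-mCherry::URA3 and GFP in CWC23::MET3pr-GFP::KanMX. The study states that its strains derive from W303. Cells grew in medium containing methionine, were washed, and then grew for 2 h in medium lacking it.

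Each nuclear polymerase of yeast has its own task. Pol I transcribes the long precursor of ribosomal RNA, Pol II makes all messenger RNA, and Pol III makes transfer RNA and the smallest ribosomal RNA. The enzymes share a core built around a largest and a second subunit that form the catalytic cleft, and each adds a stalk and its own peripheral parts. Much of the transcription of a fast-growing yeast cell is done by Pol I and Pol III, and their subunit genes are known to be regulated with the genes for ribosome assembly when growth conditions change.

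Replicate 1 held 34052011 counts and replicate 2 held 35367508. The level of a gene is given as FPKM, computed here as its count per kilobase of coding sequence and per 1000000 counts of the library, so that genes of different length can be compared. Over the 6007 genes with a coding length the median level was 45.9 FPKM, with 47.0 in replicate 1 and 44.9 in replicate 2. The cells were also checked against their mating-type label. Of 7 genes specific to a cells, 0 lay above the all-gene median, at 3.92 to 12.0 FPKM, whereas all 4 alpha-specific genes did, at 230 to 2401 FPKM, so these markers go against the MATa label. The subunits themselves were well sampled, with 260 to 9310 counts per gene and library. Every 50-base stretch of their coding sequences was unique in the genome, so no subunit shares counts with a near-identical copy. For RPB4, RPC53 and RPC19, only 52.7%, 56.1% and 33.6% of coding bases were free of overlapping open reading frames of at least 100 codons. Their counts may be too low, since how the study counted overlapping features is not stated in what was read here.

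The promoters are shown before the levels, because a short element named for these genes was found in most Pol I and Pol III promoters and few Pol II promoters. PAC takes its name from polymerases A and C, the older names of Pol I and Pol III, and is known in yeast as a binding site of the repressors Dot6 and Tod6. Its core, GATGAG, was searched on both strands from 250 bases before to 50 bases after each start codon in the RefSeq R64 genome. This is the sacCer3 sequence of the reference strain S288C, whereas the strains of the study derive from W303, so their promoters may differ. The core was found in 6 of 7 Pol I promoters, 8 of 10 Pol III promoters and both promoters of the subunits shared by Pol I and Pol III, RPC40 and RPC19. The RPC53 matches, 245 and 240 bases before its start codon, lay nearer the divergent gene SAS10, 324 bases from RPC53. The RPC25 match, 194 bases before its start codon, lay nearer the divergent gene LTV1, 299 bases from RPC25. The core was in 0 of the 5 promoters of the subunits common to all 3 enzymes. Among Pol II subunits 1 of 7 held it, RPB2, and there it lay within the coding sequence. Over all 5987 windows of this length 20.4% held the core, against 17 of 31 for the subunits. Counting only matches wholly before the start codon, the share was 17.0% over all genes and the subunits with a match numbered 16.

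The longer form of the element, GCGATGAG, which contains the core, was in 3.94% of all windows and in 6 of the 31. These 6 promoters are printed because they carry the full element. Each is given 5′ to 3′ on the coding strand, with the element or its reverse complement in capitals and the last 50 bases belonging to the coding sequence. They lie at chrXIV:182559-182858 for RPA49 (minus strand), chrXVI:918992-919291 for RPC82 (minus strand), chrXIV:348472-348771 for RPC31 (minus strand), chrXI:176432-176731 for RPC25 (minus strand), chrXVI:746786-747085 for RPC40 (minus strand) and chrXIV:412521-412820 for RPC19 (plus strand).
RPA49: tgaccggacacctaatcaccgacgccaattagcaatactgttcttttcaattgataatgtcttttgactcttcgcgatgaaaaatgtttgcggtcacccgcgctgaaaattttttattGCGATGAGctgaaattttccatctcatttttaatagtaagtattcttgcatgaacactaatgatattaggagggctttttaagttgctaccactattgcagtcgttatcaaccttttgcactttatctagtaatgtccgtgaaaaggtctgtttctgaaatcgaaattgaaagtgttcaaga
RPC82: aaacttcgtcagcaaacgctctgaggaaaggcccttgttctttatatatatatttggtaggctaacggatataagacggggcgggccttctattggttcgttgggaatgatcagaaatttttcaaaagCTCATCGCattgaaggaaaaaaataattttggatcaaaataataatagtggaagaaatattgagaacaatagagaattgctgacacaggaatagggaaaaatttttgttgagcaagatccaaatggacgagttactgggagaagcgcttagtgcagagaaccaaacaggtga
RPC31: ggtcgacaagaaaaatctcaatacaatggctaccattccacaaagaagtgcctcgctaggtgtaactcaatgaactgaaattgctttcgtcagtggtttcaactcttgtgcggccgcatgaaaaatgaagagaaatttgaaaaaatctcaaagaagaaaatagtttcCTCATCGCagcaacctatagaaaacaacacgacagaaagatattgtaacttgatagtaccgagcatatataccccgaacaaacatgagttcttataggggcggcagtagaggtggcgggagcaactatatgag
RPC25: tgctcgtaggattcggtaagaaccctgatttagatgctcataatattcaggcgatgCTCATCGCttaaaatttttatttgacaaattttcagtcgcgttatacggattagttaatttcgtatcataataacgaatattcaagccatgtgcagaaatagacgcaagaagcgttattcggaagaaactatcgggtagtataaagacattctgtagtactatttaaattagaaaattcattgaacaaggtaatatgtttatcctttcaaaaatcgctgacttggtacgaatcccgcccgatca
RPC40: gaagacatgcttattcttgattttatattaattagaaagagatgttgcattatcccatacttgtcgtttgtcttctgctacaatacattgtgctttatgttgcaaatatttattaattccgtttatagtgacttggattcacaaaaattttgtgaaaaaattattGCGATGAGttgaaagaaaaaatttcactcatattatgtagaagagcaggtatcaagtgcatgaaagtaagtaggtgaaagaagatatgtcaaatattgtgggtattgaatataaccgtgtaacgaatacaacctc
RPC19: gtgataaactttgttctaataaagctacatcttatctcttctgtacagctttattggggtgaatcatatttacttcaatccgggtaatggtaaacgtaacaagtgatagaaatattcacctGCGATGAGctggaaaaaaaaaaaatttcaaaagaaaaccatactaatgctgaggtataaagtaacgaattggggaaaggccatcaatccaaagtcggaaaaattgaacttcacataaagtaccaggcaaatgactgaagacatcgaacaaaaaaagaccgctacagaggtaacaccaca
The first base of the element, read toward the gene, stood 132 bases before the start codon in RPA49, 122 in RPC82, 83 in RPC31, 194 in RPC25, 85 in RPC40 and 129 in RPC19. The 3 Pol III promoters thus carried it at unlike distances, whereas RPC31 and RPC40 had it at nearly the same place. In the 17 subunits with a core, 23 matches were found, the farthest 245 bases before the start codon.

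A second element of ribosome assembly genes, the rRNA processing element RRPE, was searched as AAAAATTT on both strands, with overlap between different motifs allowed. It was found in 6 of 7 Pol I, 2 of 7 Pol II, 7 of 10 Pol III and 6 of 7 shared subunit promoters, and in 14.2% of all windows. RPA12, RPC17 and RPC10 had neither the PAC core nor RRPE, as did 5 of the 7 Pol II subunits when the coding match of RPB2 is set aside. The site of the general factor Reb1, TTACCCG, was in 4 of 31 subunit windows and 7.10% of all windows. TATAAA was in 15 of 31 and in 45.2% of all, so the shares of subunits and of all windows were closer for these motifs. The motif map shows PAC and RRPE matches in most rows of Pol I and Pol III genes and few in those of Pol II. A match is a run of letters in the window and was not tested as a binding site.

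**Figure D1:**
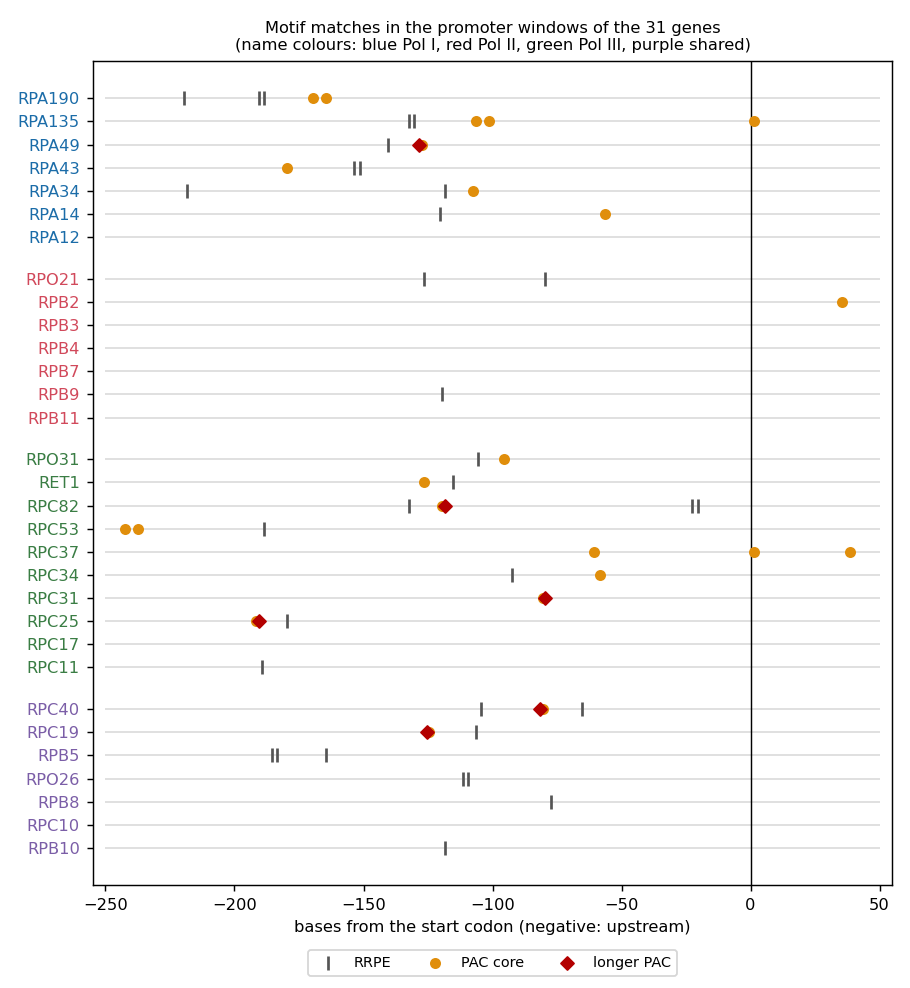
Motif matches in the promoter window of each of the 31 subunit genes, by distance in bases from the start codon, with negative values upstream and both strands pooled. PAC core matches appear in 6 Pol I, 1 Pol II, 8 Pol III and 2 shared rows, and the Pol II match is inside the coding sequence.

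The 4 sets of subunits differed in level. Shared subunits had the highest median, 198 FPKM in replicate 1 and 159 in replicate 2 (179 ± 27.8, SD, n = 2). Pol II subunits followed at 89.7 and 87.9 FPKM (88.8 ± 1.28), then Pol I subunits at 67.9 and 57.2 (62.5 ± 7.59), and Pol III subunits were lowest at 33.0 and 25.7 (29.3 ± 5.16). These ranges between libraries did not overlap, so the order shared, Pol II, Pol I, Pol III was the same in both. As CPM, without division by length, the shared median was 94.9 and lay below that of Pol II, 106.0. Of the subunits, 6 of 7 shared, 7 of 7 Pol II, 6 of 7 Pol I and 4 of 10 Pol III genes lay above the all-gene median, a position held by 50% of all genes by construction. The Pol II median was 1.32 times the Pol I median in replicate 1 and 1.54 times in replicate 2. Against Pol III the Pol II median was 2.72 and 3.42 times as high. Within a set, the highest gene exceeded the lowest by 2.86-fold in Pol I, 4.77-fold in Pol III, 5.94-fold in Pol II and 13.2-fold in the shared set. The shared range rests on RPC19, whose count may be too low because of overlap. The 5 subunits common to all 3 enzymes spanned 2.43-fold.

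**Figure D2:**
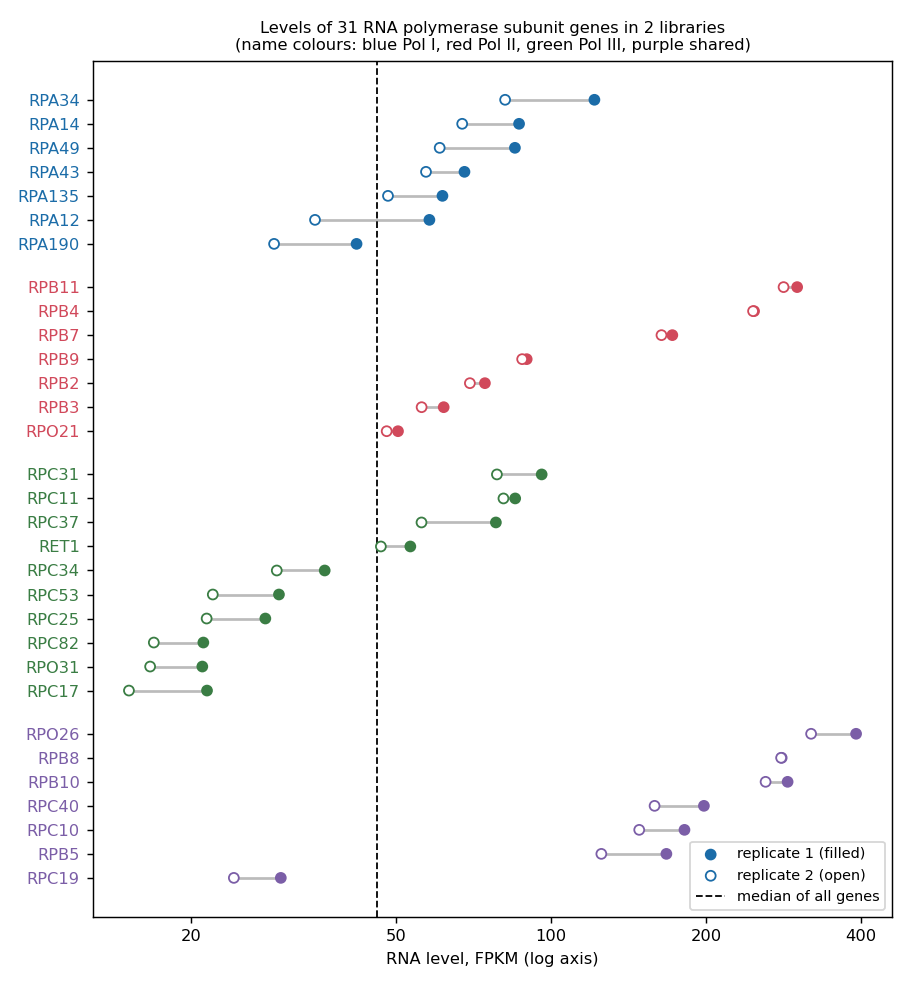
RNA level of each subunit gene in FPKM on a log axis, with filled points for replicate 1, open points for replicate 2 and a dashed line at the all-gene median of 45.9 FPKM. RPO26 is highest and RPC17 lowest, and 23 of 31 genes lie above the line.

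Among Pol I subunits the 2 catalytic genes did not have the highest levels. RPA190 (YOR341W), the largest subunit, stood at 41.9 FPKM in replicate 1 and 29.0 in replicate 2, the lowest level of the set. RPA135 (YPR010C), the second-largest and its partner in the cleft, stood at 61.5 FPKM and 48.2 FPKM in replicates 1 and 2. Each was lower in replicate 2, and their ranges over the 2 libraries did not overlap. RPA34 (YJL148W) and RPA49 (YNL248C) form a heterodimer that resembles the Pol II factor TFIIF and aids elongation. RPA34 was the highest gene of the set, at 121 FPKM in replicate 1 and 81.4 in replicate 2, and RPA49 stood at 85.1 FPKM in replicate 1 and 60.8 in replicate 2. In each library RPA34 was above its partner, by 1.43 and 1.34 times. The stalk of Pol I is made of RPA43 (YOR340C), which contacts the initiation factor Rrn3, and RPA14 (YDR156W). RPA43 stood at 67.9 FPKM and 57.2 FPKM in replicates 1 and 2 and RPA14 at 86.7 FPKM and 67.2 FPKM in replicates 1 and 2. The stalk genes were thus within 1.28-fold of each other in both libraries. RPA12 (YJR063W), needed for RNA cleavage by the enzyme, stood at 58.0 FPKM in replicate 1 and 34.8 in replicate 2, above RPA190 and below RPA135 in each library. It had the widest gap between libraries of all 31 subunits.

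Pol II subunits spanned a range of 5.94-fold and were nearly equal in the 2 libraries. RPO21 (YDL140C), the largest subunit, whose tail of repeats coordinates RNA processing, stood at 50.4 FPKM and 47.9 FPKM in replicates 1 and 2. RPB2 (YOR151C), the second-largest, stood at 74.4 FPKM in replicate 1 and 69.6 in replicate 2, 1.48 and 1.45 times RPO21. Both catalytic genes were above the all-gene median in each library. RPB3 (YIL021W) and RPB11 (YOL005C) form the platform on which the enzyme is assembled. RPB3 stood at 61.9 FPKM and 56.0 FPKM in replicates 1 and 2 and RPB11 at 301 FPKM and 283 FPKM in replicates 1 and 2. The 2 partners therefore differed 4.86-fold and 5.05-fold, although they occur in equal numbers in the enzyme. RPB4 (YJL140W) and RPB7 (YDR404C) form a stalk that can leave the enzyme in yeast. RPB4 stood at 248 FPKM in replicate 1 and 247 in replicate 2, with only part of its coding sequence free of overlap, and RPB7 stood at 172 FPKM and 164 FPKM in replicates 1 and 2. RPB9 (YGL070C), which contributes to start site choice and fidelity, stood at 89.7 FPKM in replicate 1 and 87.9 in replicate 2. The small-subunit genes of Pol II were thus above the catalytic genes, with RPB3 in between.

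Pol III subunits included the 5 lowest genes of the 31. RPO31 (YOR116C), the largest subunit, stood at 21.0 FPKM in replicate 1 and 16.6 in replicate 2, and RET1 (YOR207C), the second-largest, at 53.3 FPKM and 46.7 FPKM in replicates 1 and 2. RET1 was 2.54 and 2.81 times as high as RPO31, a wider gap than between the matching genes of Pol I or Pol II. RPC82 (YPR190C), RPC34 (YNR003C) and RPC31 (YNL151C) form a trimer that acts in initiation. RPC82 stood at 21.1 FPKM in replicate 1 and 16.9 in replicate 2, RPC34 at 36.3 FPKM and 29.3 FPKM in replicates 1 and 2 and RPC31 at 95.9 FPKM in replicate 1 and 78.5 in replicate 2. The 3 partners were in the order RPC31, RPC34, RPC82 in both libraries, with no overlap. RPC53 (YDL150W) and RPC37 (YKR025W) form the termination and reinitiation dimer. RPC37 stood at 78.1 FPKM in replicate 1 and 56.0 in replicate 2, 2.64 and 2.54 times RPC53 at 29.6 FPKM and 22.0 FPKM in replicates 1 and 2, but RPC53 is 1 of the 3 genes under 80% free of overlapping reading frames. The stalk genes of Pol III were both low. RPC25 (YKL144C) stood at 27.9 FPKM and 21.4 FPKM in replicates 1 and 2 and RPC17 (YJL011C) at 21.5 FPKM in replicate 1 and 15.1 in replicate 2, where RPC17 had 355 and 260 counts, the fewest of any subunit. RPC11 (YDR045C), the cleavage subunit, stood at 85.2 FPKM and 80.8 FPKM in replicates 1 and 2 and lay close to its Pol II counterpart RPB9.

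Shared subunits held 6 of the 10 highest places among the 31. RPO26 (YPR187W) was the highest of all at 392 FPKM and 320.3 FPKM in replicates 1 and 2, and it is the only subunit gene with an intron. RPB8 (YOR224C) stood at 281 FPKM in replicate 1 and 280.1 in replicate 2, the smallest gap between libraries of any subunit. RPB10 (YOR210W), a small zinc-binding subunit, stood at 288 FPKM in replicate 1 and 261 in replicate 2. These 3 genes, all of which serve each of the 3 enzymes, lay above every gene specific to Pol I or Pol III. RPC10 (YHR143W-A), the other small zinc-binding subunit, stood at 182 FPKM and 148 FPKM in replicates 1 and 2. RPB5 (YBR154C), which lies at the jaw that grips downstream DNA, stood at 168 FPKM in replicate 1 and 125 in replicate 2. The last 2 shared genes are the Pol I and Pol III counterparts of RPB3 and RPB11. RPC40 (YPR110C) stood at 198 FPKM in replicate 1 and 159 in replicate 2 and RPC19 (YNL113W) at 29.8 FPKM and 24.2 FPKM in replicates 1 and 2, a gap of 6.64 and 6.57 times. RPC19 has the largest overlap with another reading frame of all subunits, so this gap may be too wide.

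In order of mean level, 24 of 30 pairs of neighbouring subunits had overlapping ranges over the 2 libraries. All 31 subunits were lower in replicate 2, so a range also holds a difference between libraries. Genes with overlapping ranges could therefore keep their order in both. RPC10, for example, stood at 182 and 148 FPKM in replicates 1 and 2, above RPB5 at 168 and 125. The 6 steps without overlap came after RPO26, RPB11, RPB10, RPB4, RPB5 and RPC25, so 5 of the 6 lay among the 9 highest genes. From RPA34 down to RPC25 each range overlapped the next. RPO26 was 18.3 and 21.2 times RPC17, the extremes. Longer subunit genes tended to have lower FPKM, with Spearman's rho of -0.49 across the 31 genes and -0.23 across all 6007 genes. Within sets rho was -0.82 for the 7 Pol II genes, -0.39 for the 7 Pol I genes, -0.26 for the 10 Pol III genes and 0.07 for the 7 shared genes, so the relation was not shared by all sets. Coding length is also the divisor in FPKM, so a negative rho can be partly built in, and rho with CPM was not computed. These correlations are across genes of the same libraries, which are not independent replicates. The order itself was close in both libraries, with rho of 0.99 over the 31 genes.

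Matching subunits of the 3 enzymes allow a comparison of genes alike in structure or role. In every family that spans the 3 enzymes the Pol II gene was highest in both libraries, and in 4 of the 5 the Pol III gene was lowest. For the largest subunits, whose proteins align at 32.8% to 37.4% identity, RPO21 was 1.20 and 1.66 times RPA190 and 2.40 and 2.88 times RPO31. The second-largest subunits align at 33.3% to 41.4% identity and lay closer together. RPB2 was 1.21 and 1.44 times RPA135 and 1.40 and 1.49 times RET1. RPA135 was 1.15 and 1.03 times RET1, with overlapping ranges over the 2 libraries. The stalk genes spread most. RPB4 was 2.86 and 3.68 times RPA14 and 11.6 and 16.3 times RPC17, with only 19.4% to 23.8% identity among the 3 proteins. RPB7 was 2.53 and 2.87 times RPA43 and 6.18 and 7.66 times RPC25. The family of RPA12, RPB9 and RPC11 was the exception in order. RPB9 was only 1.05 and 1.09 times RPC11, and the Pol I gene RPA12 was lowest, with RPC11 at 1.47 and 2.32 times its level. For the assembly platform the order split, since RPC40 was 3.20 and 2.84 times RPB3 but RPB11 was 10.1 and 11.7 times RPC19. Only 33.6% of the coding bases of RPC19 and 52.7% of those of RPB4 were free of overlap. Their levels may be too low, so the gap of RPB11 over RPC19 may be too wide.

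**Figure D3:**
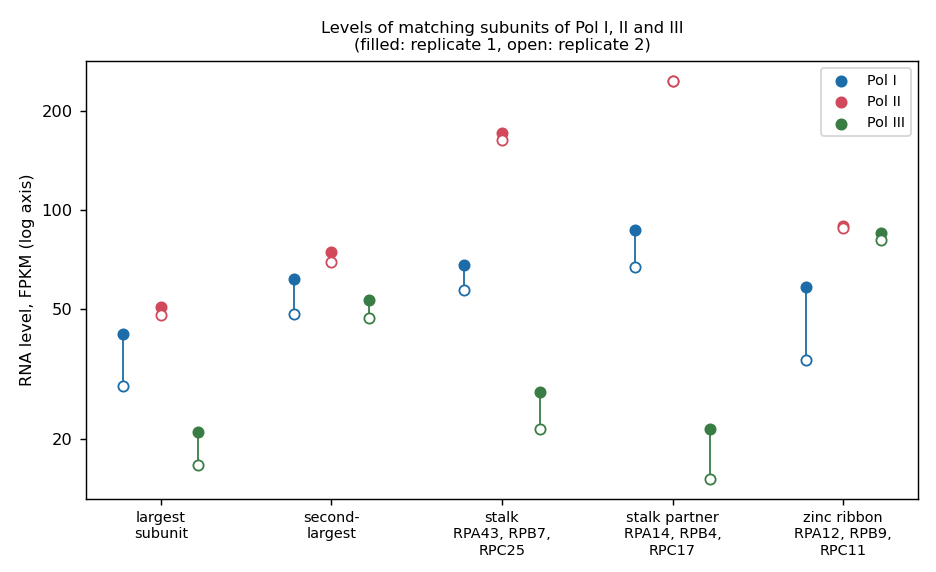
RNA levels in FPKM on a log axis of matching subunits of Pol I, Pol II and Pol III, with filled points for replicate 1 and open points for replicate 2. The Pol II gene is highest in each 3-enzyme family, and the gap to Pol III runs from 1.05-fold for RPB9 over RPC11 to 16.3-fold for RPB4 over RPC17.

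Pol I and Pol III subunit genes were lower in replicate 2 than in replicate 1, and Pol II subunit genes were close to equal. On the log2 scale of replicate 2 over replicate 1, the median was -0.49 for Pol I subunits, -0.33 for Pol III subunits, -0.29 for shared subunits and -0.07 for Pol II subunits, beside -0.03 for the 5793 genes with at least 10 counts in each library. In FPKM these medians are 1.40-fold, 1.26-fold, 1.22-fold and 1.05-fold lower in replicate 2. All 31 subunits were lower in replicate 2 by some amount, or 28 of 31 with the scaling factors described below, as were 58.1% of all genes. A limit of 0.32 on this log2 scale, used throughout, was passed downward by 6 of 7 Pol I, 5 of 10 Pol III, 1 of 7 shared and 0 of 7 Pol II subunits, and upward by 0 of 31. Over all genes 8.29% passed it downward and 4.68% upward. Among the 5329 genes with at least 250 counts in each library, as all subunits had, 7.32% passed it downward. Together the 31 genes took 0.305% of all counts in replicate 1 and 0.258% in replicate 2. With 1 library a side this compares these libraries only, without a test, and in bulk RNA fewer cells of a kind and less RNA per cell cannot be told apart.

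**Figure D4:**
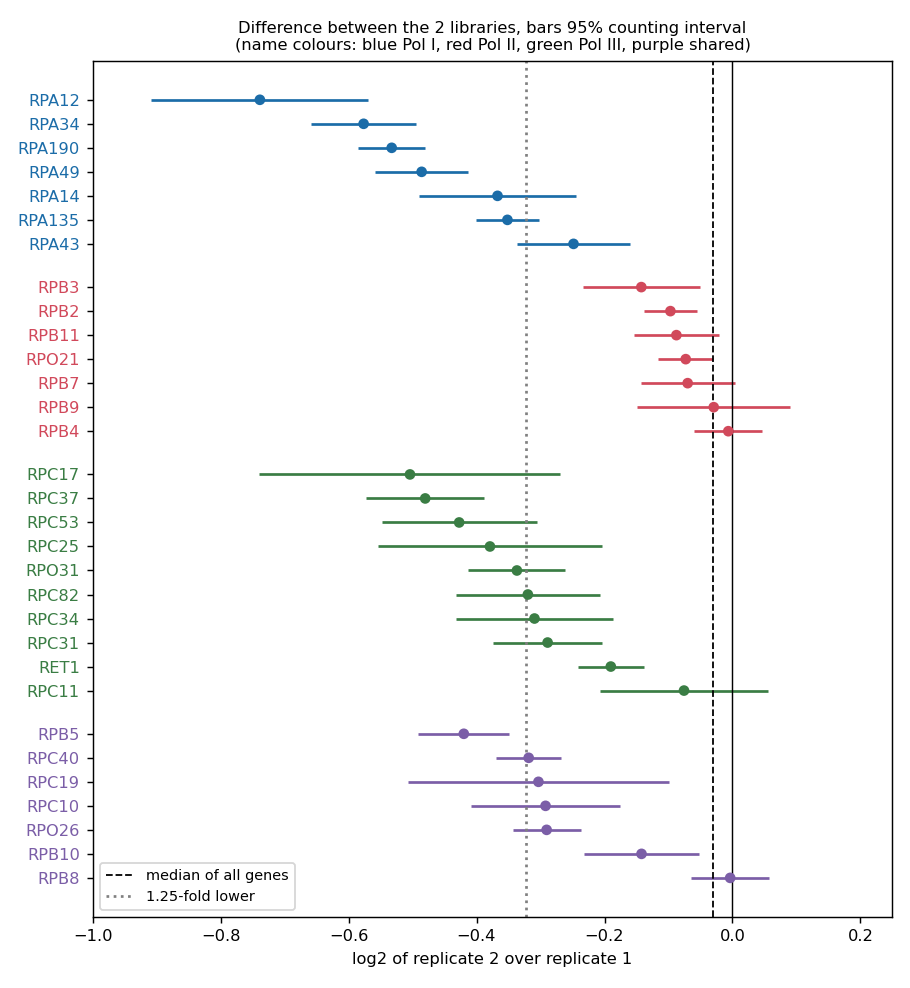
Difference between the libraries for each subunit as log2 of replicate 2 over replicate 1, with 95% exact binomial intervals for counting error, a dashed line at the all-gene median of -0.03 and a dotted line at the downward limit of 0.32. The Pol II points sit between -0.14 and -0.01, whereas 6 of 7 Pol I points lie left of the dotted line.

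RPA12 showed the largest difference, -0.74 (95% counting interval -0.91 to -0.57), from 747 counts to 465. RPA34 and RPA190 followed with -0.58 (95% counting interval -0.66 to -0.49) and -0.53 (95% counting interval -0.58 to -0.48), and RPA49 with -0.49 (95% counting interval -0.56 to -0.41). These 4 Pol I genes passed the limit even at the upper end of their intervals. RPA14 and RPA135 also passed the limit, at -0.37 and -0.35, and RPA43 did not, at -0.25. Of all genes tested, 1.07% lay further down than RPA12 and 12.9% further down than RPA43, so the Pol I set lay in the lower tail throughout. Pol III followed the same direction with smaller gaps. RPC17 was at -0.50 (95% counting interval -0.74 to -0.27), with a wide interval because of its few counts. RPC37 and RPC53, which form the termination dimer, were at -0.48 and -0.43, RPC25 at -0.38 and RPO31 at -0.34. RPC82 lay just short of the limit, at -0.320 where the limit is 0.322 below 0, and RPC34 and RPC31 were at -0.31 and -0.29. RET1 at -0.19 and RPC11 at -0.08 differed least.

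The shared subunits were mixed. RPB5 passed the limit, -0.42 (95% counting interval -0.49 to -0.35), and RPC40, at -0.318, RPC19, RPC10 and RPO26, at -0.30 to -0.29, lay just short of it. RPB10 was at -0.14, and RPB8, at -0.0036, did not differ beyond counting error. The Pol II subunits ran from -0.14 for RPB3 to -0.01 for RPB4. For RPB4, RPB7, RPB9, RPC11 and RPB8 the interval reached 0 or above, and for the other 26 subunits it lay below 0. These intervals rest on library totals and are not given under other scaling. The share of all genes with an interval below 0 is not given here either, but 58.1% of all genes were lower in replicate 2 by any amount. The count of 26 therefore does not set the subunits apart. Scaling changed small differences. When libraries were scaled by TMM, upper-quartile or DESeq2 factors the all-gene median moved from -0.03 to about 0.00, RPB4, RPB8 and RPB9 turned to the higher side, and 28 of 31 subunits stayed below 0. Under each of these, 5 Pol I, 4 Pol III, 1 shared and 0 Pol II subunits passed the limit, with RPA135 and RPO31 lost, beside 6.94% to 7.04% of all genes lower and 5.49% to 5.54% higher.

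Other genes of the same pathways gave the setting of these differences. Of 50 ribosome biogenesis factors, 47 passed the limit downward and 0 upward, with a median of -0.54. Their levels ran from 5.78 FPKM for DBP7, a helicase of large-subunit assembly, to 504 FPKM for GAR1, a protein of guide RNA particles that modify ribosomal RNA. The largest difference was that of SSF1, a large-subunit assembly factor, at -1.12. This list was chosen with the replicate difference known, so its count is no independent support. The factors that work with each enzyme differed less. Over all genes 8.29% passed the limit downward, so 1 gene in a list of 9 is near that share. Of 9 Pol I factors 1 passed the limit, with a median of -0.14: UAF30, of the upstream activating factor, at -0.36. Levels there ran from 2.07 FPKM for RRN11, of the core factor, to 351 FPKM for HMO1, a DNA-binding protein of ribosomal DNA. Of 21 Pol II general factors 0 passed, with a median of -0.06, and TOA1, of TFIIA, differed most at -0.25. Their levels ran from 20.5 FPKM for TFB2, of TFIIH, to 187 FPKM for TOA2, the small subunit of TFIIA. Of 9 Pol III factors 0 passed, with a median of -0.16 and TFC1, of TFIIIC, at -0.25. MAF1, the repressor of Pol III, was the highest at 90.4 FPKM and TFC4, also of TFIIIC, the lowest at 15.6. Of 9 assembly and import factors 1 passed, BUD27 at -0.34, with a median of -0.17. NPA3, an import factor of Pol II, was highest at 118 FPKM and RTP1 lowest at 9.54. The median differences of Pol I and Pol III subunits, -0.49 and -0.33, thus lay below those of their own factors, -0.14 and -0.16. The ribosome biogenesis list cannot place them, because of how it was chosen.

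A pair of lists added after the values were seen gave other values. All 14 stress response genes passed the limit upward, with a median of 0.58, among them HSP104, a disaggregase, at 1.06. Over all genes 4.68% passed it upward. The list was made with the values known, so its count is no independent support. Of 137 ribosomal protein genes 1 passed the limit downward and 1 upward, with a median of -0.11. The part of these genes in the difference between libraries was not tested.

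**Figure D5:**
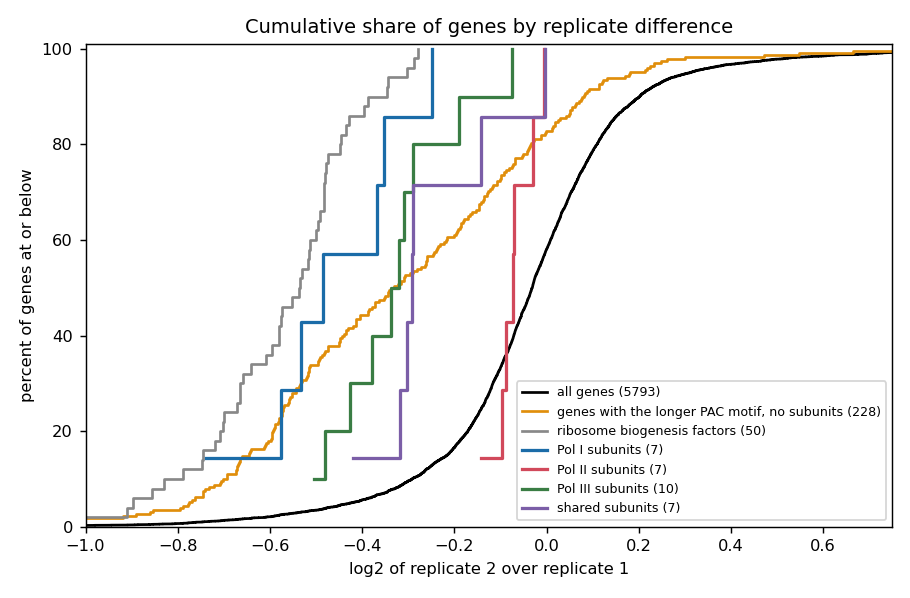
Cumulative percent of genes at or below each log2 difference of replicate 2 over replicate 1, for the 4 subunit sets, all 5793 genes, 50 ribosome biogenesis factors and 228 other genes with the longer PAC motif. The Pol I curve has a median of -0.49 and that of ribosome biogenesis factors -0.54, but the latter list was chosen with the replicate difference known. The Pol II curve, at -0.07, runs near that of all genes.

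The PAC promoters shown above can be set beside the replicate difference. Subunits with a PAC core had a median of -0.34 and 9 of 17 passed the limit, whereas those without had a median of -0.11 and 3 of 14 passed. The gap over all subunits rests largely on Pol II, which gave 6 of the 14 genes without a core, 0 of them past the limit. Within Pol III 4 of 8 passed with a core and 1 of 2 without, and within Pol I 5 of 6 with and 1 of 1 without. The 3 without a core that passed were RPA12, RPC17 and RPB5, so the largest difference of all belonged to a gene with no core in its window. RPC37 differed by -0.48, and of its 3 core matches only that beginning 63 bases before the start codon lay wholly upstream. RPC31, with the full element 83 bases before its start, differed by -0.29. Over the whole genome, 22.3% of 1158 genes with a core passed the limit downward, against 4.79% of 4634 without. For the longer element, subunits left out, it was 50.9% of 228 genes, with a median of -0.33. Among the subunits themselves 2 of 6 with the longer element passed, the genes whose promoters are printed, against 10 of 25 without it. Genes with both the core and RRPE gave 51.2% of 336, genes with RRPE and no core 7.13% of 505, and those with neither 4.50% of 4129. The PAC core was in 20.4% of all windows. Among Pol I factors 6 of 9 windows held it, and among Pol II factors 5 of 21. For Pol III factors the count was 1 of 9 and for assembly factors 5 of 9. It was 47 of 50 for ribosome biogenesis factors. That list was chosen with the replicate difference known, so its count is no independent support. Many genes hold PAC with no difference between libraries, and the part of PAC in these differences was not tested.

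At 8 subunit genes a divergently transcribed neighbour has its coding sequence less than 400 bases away, and the pairs were not alike. SAS10, DBP7 and LTV1, all of ribosome assembly, stood at -0.57, -0.52 and -0.58 beside their Pol III partners RPC53 at -0.43, RPC37 at -0.48 and RPC25 at -0.38. QCR2, of the respiratory chain, was higher in replicate 2 at 0.25 beside RPC82 at -0.32. CRS1, a cysteine transfer RNA synthetase, stood at -0.13 beside RPA49 at -0.49, and NTA1, an amidase, at -0.07 beside RPA12 at -0.74. MNP1, a mitochondrial ribosomal protein, was at 0.23 beside RPB9 at -0.03, and PZF1, which encodes TFIIIA of Pol III, at -0.04 beside RPO26 at -0.29. RPA190 (chrXV:960987-965981, plus strand) and RPA43 (chrXV:959202-960182, minus strand) are divergent neighbours 804 bases apart and differed by -0.53 and -0.25. The 31 genes lie on 10 chromosomes.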

How the data were processed

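Poly(A) RNA of 2 libraries was sequenced by the authors, whose processing notes name featureCounts 2.0.3 and the sacCer3 build. For its sequencing in general the study lists BWA as aligner, with fastp and Picard, but does not tie them to the RNA libraries, and no source used here gives the strand setting or the rule for overlapping features. The deposited tables hold whole-number counts per gene, although the deposit calls them FPKM, and do not tell reads from read pairs. The intervals, exact binomial at 95% and conditional on the summed count, cover counting error only.

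Subunits were matched by systematic name to the RefSeq R64 annotation, and FPKM was computed from coding length and the library total. The 685 genes without a length held 0.281% and 0.292% of counts. With 1 group of 2 libraries there were no conditions to test. Differences were taken over genes with at least 10 counts in each library, with a limit of 0.32 on the log2 scale. Scaling factors alone were taken from edgeR 4.0.16 and DESeq2 1.42.0 (R 4.3.3). Proteins translated from the coding sequences were aligned globally (BLOSUM62, gap penalties 11 and 1, Biopython 1.88), and identity is over aligned residues. Only the log2 difference was tested on simulated data, which held counting error and no other variation between libraries.

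Membership follows gene names alone, but these genes and the gene lists were picked for description with earlier results of these data known. All subunits are named, with the highest, lowest and most different gene of each pathway list. HSP104 was named after its value was seen. No protein sequence is printed.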

Additional observations from a re-analysis of the deposited data

How the results depend on the processing

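As CPM, with no division by length, the set medians were 71.2 for Pol I, 106.0 for Pol II, 35.0 for Pol III and 94.9 for shared subunits, so the shared set lay below Pol II. Without the 3 subunits under 80% free of overlap, Pol II was at 80.4 and shared subunits at 227 FPKM. Geometric means were 112 FPKM for Pol II and 35.6 for Pol III. Leaving out either replicate gave 57.2 to 67.9 FPKM for Pol I, 87.9 to 89.7 for Pol II, 25.7 to 33.0 for Pol III and 159 to 198 for shared subunits. Under TMM, DESeq2 and upper-quartile scaling, and as the difference from the all-gene median (chosen after seeing the data), the median log2 difference of replicate 2 over replicate 1 was -0.45 for Pol I, -0.042 for Pol II (-0.040 with DESeq2), -0.30 for Pol III and -0.26 for shared subunits, each with the same sign as before. The mean over the shared set was -0.25. At a limit of 1.5-fold, in place of 0.32 in log2, 1 subunit was lower, RPA12. RPA34 fell just short of 1.5-fold, at 1.49-fold, and 2.49% of all genes tested lay further down than RPA34. At most that share of all genes thus passed the 1.5-fold limit. Also chosen after seeing the data, 250 counts as minimum gave 7.32% of all genes lower at the limit of 0.32. The longer PAC form was in 19.4% of subunit windows. No paired analysis was possible because there is 1 group. Depth limits mainly RPC17, with 260 to 355 counts. A single library a side, unknown handling of overlapping reading frames and mating-type markers that go against the label bear on every value.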
